A study of Mus musculus with 4 samples.

Results

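The nuclear-encoded subunits of the oxidative phosphorylation complexes were followed across 6 cell classes of the mouse retina in single-cell cDNA sequenced as long reads. A gene was a member when its symbol matched the name series of NADH dehydrogenase (Nduf), succinate dehydrogenase (Sdh), the cytochrome bc1 complex (Uqcr), cytochrome c oxidase (Cox4 to Cox8) or ATP synthase (Atp5), pseudogene names left out. The rule found 81 members of 16702 gene identifiers in the deposited table, with 140 of its 44325 isoforms. By complex they were 35 genes of complex I, 4 of complex II, 8 of complex III, 19 of complex IV and 15 of complex V. All 81 had at least 100 counts over the classes, and 77 had a count in every class.

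The retinas were those of wild-type male C57BL6/J mice, an inbred strain, in all libraries. Of the 4 libraries, 2 had no enrichment (1 from postnatal day 40, the age of the other is not given in the labels), 1 had CD73 enrichment (postnatal week 8) and 1 had CD90.2 enrichment (postnatal month 4). The protocol describes magnetic depletion of cells carrying CD73, a surface protein of photoreceptors, and positive selection for CD90.2, a surface protein of neurons, whereas the design text names fluorescence-activated sorting. The deposited columns are rods, cones, Müller glia (MG), retinal ganglion cells (RGC), amacrine cells (AC) and bipolar cells (BC), and they name no library. Each class was therefore taken as 1 pooled sample without replicates, and classes were not compared by a test. The part of each library in a column is not known. A difference between classes therefore cannot be told apart from one of enrichment, age or library. Differences are described by size, with exact 95% intervals that cover counting error only. The intervals take each count as a separate molecule, and are too narrow where several counts come from 1 molecule.

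The columns held 55437340 counts for rods, 48248340 for amacrine cells, 29010038 for bipolar cells, 7307134 for cones, 6133094 for Müller glia and 3509890 for ganglion cells. The 6 rod, 6 cone, 6 bipolar, 6 amacrine and 6 ganglion cell markers were each highest in the column of their name, and 3 of the 4 listed Müller glia markers were highest in MG. The highest values of 5 of 6 pigment epithelium markers, of both listed pericyte markers and of each of 6 microglial, 4 astrocyte and 4 red blood cell markers were also in MG. The RGC column had 0 counts of all 6 rod and all 6 cone markers.

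The respiratory chain moves electrons from NADH (complex I) and succinate (complex II) through complex III to oxygen at complex IV, and the proton gradient built on the way drives ATP synthase (complex V). Complexes I, III, IV and V mix subunits of nuclear and mitochondrial genes, whereas all subunits of complex II are nuclear. Several complex IV subunits, and the c subunit of ATP synthase, are encoded by paralogous genes, some of which are known as heart and muscle, lung or testis forms. Photoreceptors pack mitochondria into their inner segments and are among the most oxygen-demanding cells of the body. The 13 mitochondrially encoded subunits were not analysed here.

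The sequences on which the isoform results turn are the following, written 5′ to 3′ on the transcribed (minus) strand of build GRCm38. They are 4 internal coding exons (capitals, with 15 bases of the neighbouring exons in lower case) that were left out of an alternative isoform in a share of the transcripts that differed between classes. They are in Ndufa5 (chr6:24522659-24522775) and Ndufa6 (chr15:82350979-82351094), accessory subunits of complex I, Ndufs4 (chr13:114351448-114351526), an accessory subunit of complex I whose loss causes a Leigh-like disease, and Atp5l (chr9:44914651-44914811), subunit g of ATP synthase. Only the Ndufa5 exon has a length that is a multiple of 3 (117 bases). The others have 116 bases (Ndufa6), 79 bases (Ndufs4) and 161 bases (Atp5l).
Ndufa5 exon: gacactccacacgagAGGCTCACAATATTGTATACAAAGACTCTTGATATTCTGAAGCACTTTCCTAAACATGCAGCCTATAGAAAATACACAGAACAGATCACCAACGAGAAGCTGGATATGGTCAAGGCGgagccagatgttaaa
Ndufs4 exon: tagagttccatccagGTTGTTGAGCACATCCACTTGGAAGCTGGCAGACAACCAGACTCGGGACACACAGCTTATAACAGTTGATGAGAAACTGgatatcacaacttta
Ndufa6 exon: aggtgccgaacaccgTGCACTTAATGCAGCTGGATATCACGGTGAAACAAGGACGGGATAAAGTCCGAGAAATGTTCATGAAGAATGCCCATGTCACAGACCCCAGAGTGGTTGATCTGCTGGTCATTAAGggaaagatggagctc
Atp5l exon: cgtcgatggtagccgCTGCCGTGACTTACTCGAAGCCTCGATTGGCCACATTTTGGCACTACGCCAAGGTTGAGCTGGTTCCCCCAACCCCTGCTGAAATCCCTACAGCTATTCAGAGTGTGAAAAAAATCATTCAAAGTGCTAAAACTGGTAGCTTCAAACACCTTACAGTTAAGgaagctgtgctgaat

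The summed share of a column's counts taken by the 81 genes was 10.8% in bipolar cells, 10.0% in cones, 9.61% in amacrine cells, 9.52% in ganglion cells, 7.27% in rods and 6.41% in Müller glia. The widest counting interval, in ganglion cells, ran from 9.49 to 9.55%. The highest class was thus 1.69 times the lowest. The order at both ends depended on the scaling: with scaling by the median of ratios, cones were highest (11.01%) and rods lowest (6.66%, against 7.63% in Müller glia), and without the 20 genes of highest level cones were highest (12.6%) and Müller glia stayed lowest (7.10%). A lower share can come from fewer subunit transcripts per cell or from more of other transcripts, and these cannot be told apart in pooled columns.

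Levels are given as counts per 1000000 counts of a column (CPM). By complex, the ratio of the highest to the lowest class in the summed level was 1.61 for complex I, 1.21 for II, 1.58 for III, 1.74 for IV and 1.83 for V. Across the 81 members, which share the column totals, the levels of amacrine and ganglion cells (Spearman correlation 0.969) and of cones and rods (0.966) were the most alike, and those of Müller glia and ganglion cells (0.840) the least. The subunits varied less between classes than other genes. The ratio of the highest to the lowest class had a median of 2.23 over the 77 members with a count in every class, and of 6.24 over 6585 genes meeting the same criteria. Among genes with a mean of at least 100 CPM the medians were 2.16 for 69 members and 2.997 for 1385 genes. Müller glia had the lowest CPM for 35 of the 81 members (43.2%, against 20.7% of all genes) and rods for 21 (25.9%, against 8.36%). Bipolar cells had the highest for 27 (33.3%, against 14.6%) and the lowest for 0 (5.65% of all genes). The amacrine and ganglion cell columns were both above the other 4 for 24 members (29.6%, against 16.7% of all genes) and both below them for 11 (13.6%, against 20.8%). The 11 included the F1 subunits Atp5a1, Atp5b and Atp5c1, the complex I core subunit Ndufs1, and the complex II membrane anchors Sdhc and Sdhd. All these tallies of highest and lowest classes rest on scaling by column totals and were not repeated with the other scalings.

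**Figure D1:**
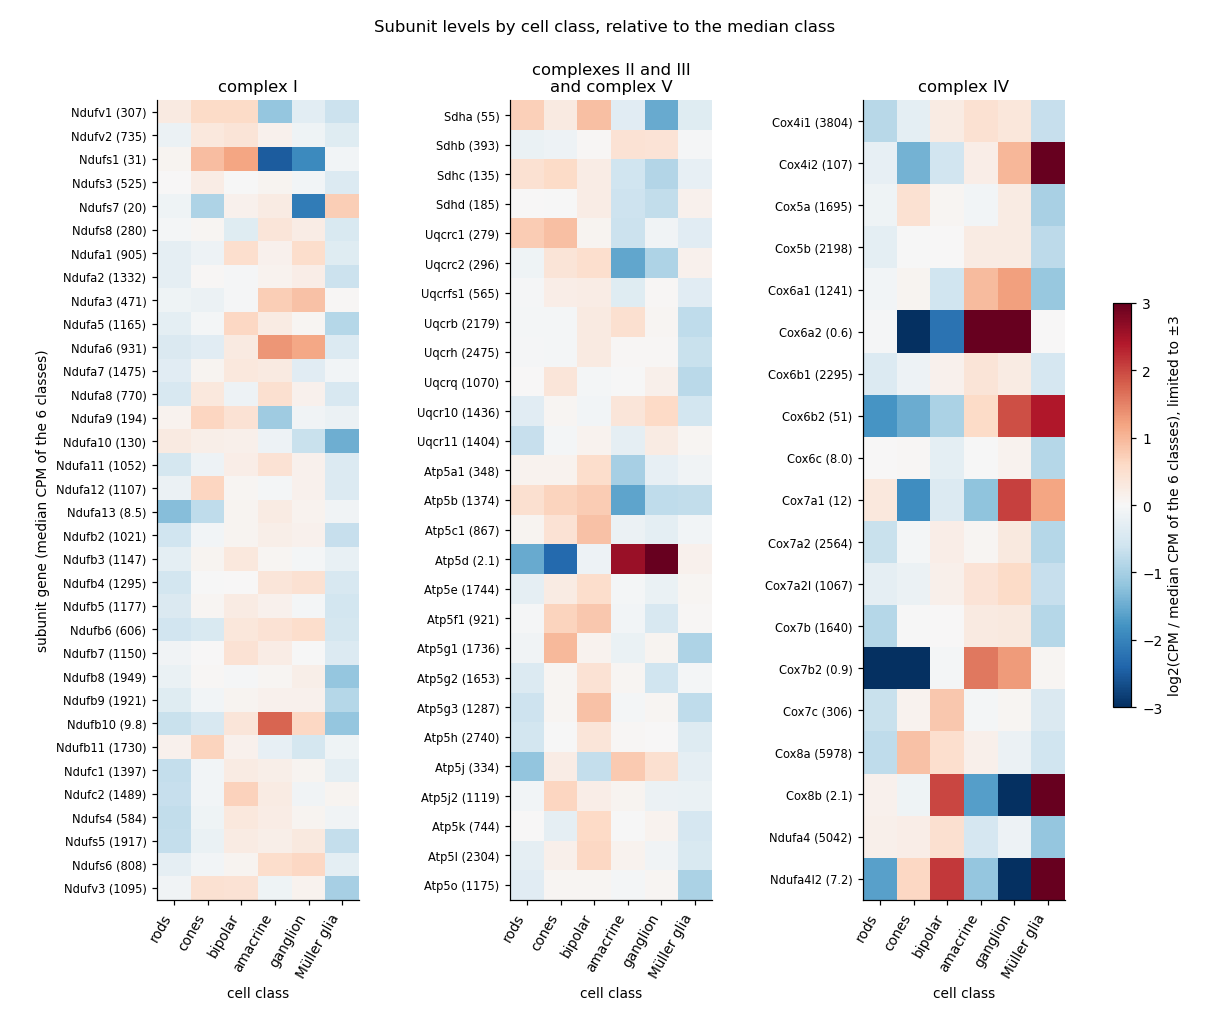
Heat map of subunit CPM in each class, as log2 of the ratio to the median of the 6 classes (colour scale limited to 3 in either direction), with that median CPM in brackets (1 member is not drawn). Strong colours are found mainly in paralogues and in genes of low level, and most other rows stay pale, with a median highest-to-lowest ratio of 2.23 over 77 members.

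A gene was called above in a class when its CPM was at least 2 times the median of the other 5 classes, and below when it was at most 0.5 times that median, over 10646 genes with at least 100 counts. In rods, 3 members were above (27.5% of all genes were) and 8 were below (18.9%). In cones, 5 members were above (14.7%) and 6 were below (18.5%). In bipolar cells, 5 members were above (20.7%) and 2 below (12.9%). In amacrine cells, 8 were above (27.8%) and 10 below (22.3%). In ganglion cells, 9 were above (19.5%) and 8 below (26.8%), and in Müller glia 5 were above (19.9%) and 9 below (21.4%). Counted over all classes, 19 members were above somewhere (73.9% of all genes) and 29 were below somewhere (69.5%). As shares of the 81 members, all of these lie under the share of all genes. The genes compared were not matched to the subunits in level. The gap in median highest-to-lowest ratio was smaller among genes with a mean of at least 100 CPM (2.16 against 2.997) than without that limit (2.23 against 6.24). Of the 35 member calls above in a class and 43 below, 27 and 33 were kept under each of 3 other scalings. The count below in Müller glia was 3 in place of 9 with median-of-ratios scaling and 12 with the trimmed mean of M-values. The count above in rods was 1 in place of 3 with median-of-ratios scaling, that above in cones 8 in place of 5 without the 20 genes of highest level, and that below in rods 5 in place of 8 with annotated isoforms only.

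**Figure D2:**
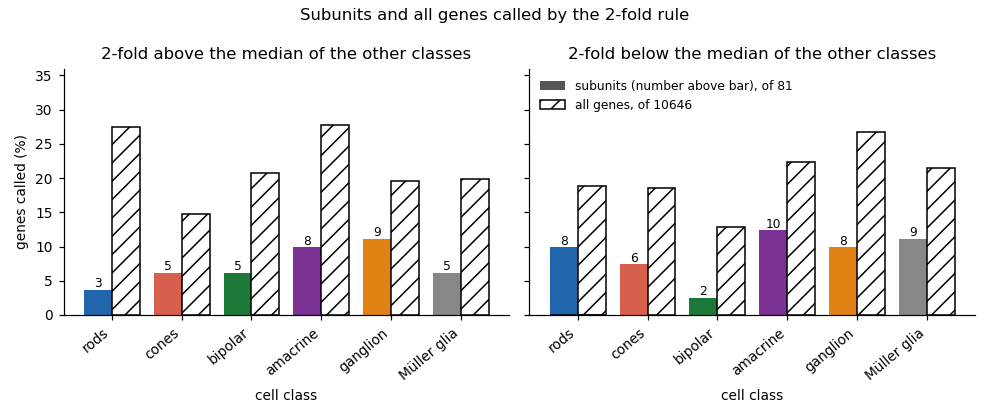
Percent of genes called above (left) or below (right) the median of the other classes by the 2-fold rule, for the 81 subunits (coloured bars, number of genes on top) and for all 10646 genes (hatched bars). The coloured bar is lower than the hatched bar in every class and direction, with all genes not matched to the subunits in level.

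Complex I core subunits carry the flavin and iron-sulfur clusters. Ndufv1, which binds NADH, was at 137 CPM in amacrine cells, 246 in ganglion cells, 197 in Müller glia, 367 in rods, 455 in bipolar cells and 456 in cones, and the amacrine value was called below. Ndufs1, the largest core subunit, was listed at 5.51 CPM in amacrine cells (95% interval 4.87 to 6.22), 8.26 in ganglion cells, 29.3 in Müller glia, 32.5 in rods, 58.4 in cones and 70.3 in bipolar cells. Amacrine and ganglion cells were both called below, at 0.170 and 0.254 times the median of the others, and bipolar cells above (2.39 times). Ndufs7 was listed at 4.56 CPM in ganglion cells (16 counts), 10.3 in cones (both called below, the cones not with median-of-ratios scaling or without the 20 genes of highest level), 17.9 in rods, 21.4 in bipolar cells, 23.5 in amacrine cells and 32.9 in Müller glia. Ndufv2, Ndufs3 and Ndufs8 were called in no class.

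Of the 28 accessory subunits of complex I, which surround the core, Ndufa6 was the one of high level called above in amacrine and ganglion cells. Its level was 2335 CPM in amacrine cells, 2076 in ganglion cells, 1123 in bipolar cells and 739 in cones, with the lowest levels in rods (692) and Müller glia (696). The columns of amacrine and ganglion cells stood apart from the other 4. In Müller glia, Ndufa10 (47.1 CPM, against 81.8 to 156 elsewhere), Ndufb8 (868, against 1702 to 2205) and Ndufv3 (546, against 1009 to 1502) were called below, the last 2 not with median-of-ratios scaling. Ndufa9 was called below in amacrine cells (93.0 CPM, against 172 to 306).

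Ndufa13 and Ndufb10 were listed at low levels in all classes, at 3.52 to 10.1 CPM and 4.40 to 32.9 CPM, although both are obligate accessory subunits. All isoforms of Ndufa13 and 94.0% of the counts of Ndufb10 were unannotated. On the same strand, a locus with no gene name (chr17:24722060-24724420) shared 234 exonic bases with Ndufb10 and held 906 counts, and Yjefn3 shared 116 with Ndufa13 and held 3911 in 1 isoform. Such a locus also held 5669 counts beside 170339 of Ndufb3. How counts were divided between overlapping genes was not tested. Cox6c, a complex IV subunit with 5 listed isoforms, had 1133 counts in all and 4.40 to 8.55 CPM.

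In complex II, the catalytic subunit Sdha, which carries the flavin, was at 103 CPM in bipolar cells, 90.6 in rods, 66.9 in cones, 43.5 in amacrine cells, 43.2 in Müller glia and 19.4 in ganglion cells. It was called above in bipolar cells and rods and below in ganglion cells, the calls above not with median-of-ratios scaling. Sdhc was also called below in ganglion cells (73.2 CPM, against 88.6 to 200). The iron-sulfur subunit Sdhb was highest where Sdhc was lowest, with 533 CPM in amacrine cells and 522 in ganglion cells against 341 to 402 elsewhere. The summed level of the 4 subunits was the most even of the complexes, with a highest-to-lowest ratio of 1.21.

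In complex III, Uqcrc2, a core protein, was at 99.8 CPM in amacrine cells and 157 in ganglion cells, both called below (the ganglion cells not with the trimmed mean of M-values), against 270 in rods, 322 in Müller glia, 387 in cones and 422 in bipolar cells. Its partner Uqcrc1 was at 177 CPM in amacrine cells, 222 in Müller glia, 261 in ganglion cells, 297 in bipolar cells, 472 in rods and 525 in cones, and was called above in cones (not with the trimmed mean of M-values). The catalytic Rieske protein Uqcrfs1 had the smallest ratio of highest to lowest class of all members with a count in every class (1.501, from 438 CPM in amacrine cells to 657 in bipolar cells). Next came the accessory subunits Ndufb3 (1.53) and Ndufa7 (1.55), the core subunit Ndufs3 (1.55) and Sdhb (1.56).

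In complex V, the catalytic beta subunit of F1, Atp5b, was at 462 CPM in amacrine cells, 804 in ganglion cells, 828 in Müller glia, 1919 in rods, 2170 in cones and 2342 in bipolar cells. The former 3 were called below and the latter 3 above, and only the Müller glia and rod calls were lost with median-of-ratios scaling. The alpha subunit Atp5a1 was called below in amacrine cells only (175 CPM, against 293 to 500). Summed over the 5 F1 genes, the level was 3083 CPM in amacrine cells and 3351 in ganglion cells against 6941 in bipolar cells, a ratio of 2.25 between the highest and the lowest class. The delta subunit Atp5d ran the other way, at 26.2 CPM in ganglion cells and 12.5 in amacrine cells against 0.411 to 2.28 elsewhere, but it was listed with only 807 counts in all. Atp5j, coupling factor 6 in the stalk, was at 576 CPM in amacrine cells, 468 in ganglion cells, 389 in cones, 278 in Müller glia, 204 in bipolar cells and 147 in rods, with amacrine cells called above and rods below. The amacrine call did not hold with median-of-ratios scaling or without the 20 genes of highest level.

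Transcript length went with some of these orders. Across the 81 members, the Spearman correlation of the fold over the other classes with the length of the most abundant modelled isoform was -0.22 in amacrine and -0.35 in ganglion cells, and 0.31 in cones and 0.22 in rods. Across 10535 genes it was 0.04 in amacrine cells, -0.01 in ganglion cells, -0.05 in cones and 0.19 in rods. These genes share the column totals, and the part of length in the results was not tested.

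The most abundant isoform of Atp5g1 differed between classes. Atp5g1 encodes the same mature c subunit as Atp5g2 and Atp5g3 with another targeting sequence. Its 2 transcripts differ in their first exons, which lie next to each other (chr11:96075557-96075619 and chr11:96075627-96075670). ENSMUST00000107684.1 took 61.8% of the counts in cones (61.2 to 62.4%), 47.8% in ganglion cells, 40.3% in bipolar cells, 35.0% in amacrine cells, 34.2% in rods and 25.6% in Müller glia. Cones were the one class in which it was the more abundant. Of the 36 members with 2 or more isoforms that could be compared (100 or more counts in at least 2 classes), 2 had a different most abundant isoform in some pair of classes (25.7% of all genes) and 1 also passed a difference of 50 percentage points in its share (10.2%).

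Among 30 further or minor isoforms with at least 1000 counts, from 27 members, the share within the gene differed between classes by a median of 7.13 percentage points, against 15.5 over 1757 such isoforms of all genes. It differed by 10 points or more for 12 of the 30 (40.0%, against 66.7% of all). The shares in amacrine and ganglion cells were both above those of the other 4 classes for 12 of the 30 (40.0%, against 21.5% of all) and both below for 5 (16.7%, against 17.5%). The genes described next were chosen after their values were seen.

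Skipping of the 117-base Ndufa5 exon was highest in ganglion cells (12.3%, 11.4 to 13.4%) and amacrine cells (6.27%), with 1.85% in bipolar cells, 1.80% in rods, 1.60% in cones and 0.683% in Müller glia. Skipping of the 79-base Ndufs4 exon, in an isoform annotated for nonsense-mediated decay, was 9.98% in amacrine cells (9.66 to 10.3%) and 9.55% in ganglion cells (8.35 to 10.9%). It was 1.80% in rods, 2.27% in cones, 2.82% in bipolar cells and 3.14% in Müller glia. The nonsense-mediated decay isoform of Ndufs6 was 14.6% in ganglion cells, 9.72% in amacrine cells and 4.42 to 5.78% elsewhere. A second protein-coding isoform of the core subunit Ndufs8 (ENSMUST00000075092.7) was 23.98% in ganglion cells, 22.5% in amacrine cells and 5.09 to 9.57% elsewhere. In all 4 genes the intervals of amacrine and ganglion cells lay above those of the other 4 classes. Because the genes were chosen after these values were seen, this lends no support to a shared pattern.

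Skipping in Ndufa6 and Atp5l was highest in photoreceptors. The Ndufa6 isoform without the 116-base exon took 11.9% of the counts in rods (11.6 to 12.2%), 8.07% in cones, 5.19% in bipolar cells, 5.01% in Müller glia, 2.70% in ganglion cells and 1.84% in amacrine cells. In CPM this isoform varied less, from 34.9 in Müller glia to 82.3 in rods, while the gene itself was highest in amacrine cells. The Atp5l isoform without the 161-base exon took 6.71% in rods (6.56 to 6.86%), 2.67% in cones, 0.627% in Müller glia, 0.319% in ganglion cells, 0.266% in bipolar cells and 0.200% in amacrine cells. Its level in cones (68.2 CPM) was 52.9% of that in rods (129 CPM), and in Müller glia 8.22%. The 6 rod markers, which other columns also held, summed in cones to 4.14% and in Müller glia to 5.89% of their rod level, and their part in these values was not tested. For Atp5l, near-identical copies among other annotated genes are the most numerous of all members (8 in GENCODE M21, none listed in the deposited table), so its counts are uncertain to that extent.

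Ndufv3 encodes a short and a long form of an accessory subunit, which differ by a long internal exon of 1092 bases. The isoform with that exon took 13.3% in Müller glia, 11.3% in bipolar cells, 7.80% in rods, 7.19% in amacrine cells, 5.01% in cones and 0.681% in ganglion cells. The ganglion cell value rested on 28 of 4110 counts. Sdha had an unannotated 5-exon isoform of 702 bases, part of the annotated intron chain, with 43.4% of the counts in cones (38.9 to 47.9%), 42.0% in rods, 41.0% in bipolar cells, 30.4% in amacrine cells and 27.2% in Müller glia. In ganglion cells it had 4 of 68 counts (5.88%, 1.63 to 14.4%).

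**Figure D3:**
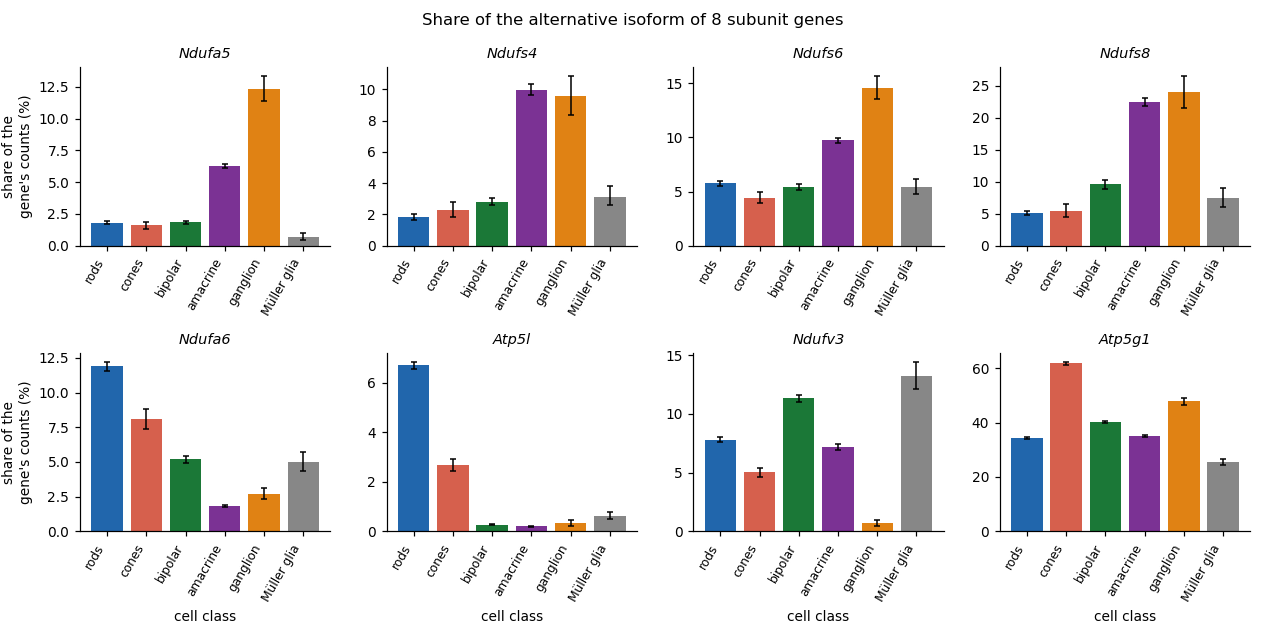
Share of the alternative isoform in the counts of its gene (percent, vertical axis, starting at 0 with a scale of its own in each panel) by class, with exact 95% intervals for counting error. Ndufa5, Ndufs4, Ndufs6 and Ndufs8 are highest in amacrine and ganglion cells, Ndufa6 and Atp5l in rods, Ndufv3 in Müller glia and Atp5g1 in cones.

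Atp5j had an isoform outside the annotation that begins at a downstream start and lacks the 205-base first exon. It also differs in the next intron (chr16:84831508-84834941, against chr16:84831508-84834808 in the main isoform), so it lacks part of the second exon. It took 31.6% of the counts in bipolar cells, 16.7% in Müller glia, 14.6% in rods, 13.6% in cones, 8.52% in amacrine cells and 2.13% in ganglion cells. Its modelled start (chr16:84835005) lies 29 bases before a RefSeq start of the gene (chr16:84834976) and 620 bases after the start of the main isoform. The 250 bases before that RefSeq start are shown (RefSeq, GRCm38.p6, chr16:84834977-84835226, minus strand), with the match to the YY1 letters AAGATGGC in capitals. The modelled start lies within them, so their last 29 bases belong to the modelled isoform.
Atp5j downstream start: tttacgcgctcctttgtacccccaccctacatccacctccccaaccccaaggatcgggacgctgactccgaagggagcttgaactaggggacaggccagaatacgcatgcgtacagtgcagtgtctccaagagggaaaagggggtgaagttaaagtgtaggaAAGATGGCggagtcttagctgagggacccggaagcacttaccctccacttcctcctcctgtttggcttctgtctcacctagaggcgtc
Promoter windows from 250 bases before to 50 bases after a start were found for 67 of the 81 members. On either strand, AAGATGGC (YY1) was in 14.9% of them against 3.19% of 27025 genes, GCATGCGC (NRF1) in 14.9% against 3.05%, CCGGAAGT (ETS factors) in 7.46% against 4.31%, TCAAGGTCA (ERR) in 2.99% against 0.466%, and TAATCC (CRX) in 8.96% against 8.14%. The letters were found in 10 members each for YY1 and NRF1, 6 for CRX, 5 for ETS factors and 2 for ERR. The 27025 genes were not matched to the subunits in level. A match is a description of the letters and not a binding site.

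Unannotated isoforms made up a smaller share among the subunits than over the whole deposited table. They were 34 of 140 isoforms (24.3%, 17.4 to 32.2%) and 1.73% of the counts, against 63.5% of isoforms and 6.35% of counts over all genes. All genes here include 3250 loci named by position, which the symbol rule cannot select. Part of the difference is therefore set by the rule, and a share over Ensembl genes alone was not computed. Most of the unannotated counts of the subunits belonged to Atp5f1, subunit b of the stalk, whose single listed isoform was unannotated (157966 counts). Its chain of 6 introns is part of an annotated one. Without Atp5f1 the share was 0.543%. The isoforms next in counts were in Ndufb5 (20361), Cox4i1 (12418), Uqcrq (6981) and Ndufv1 (6548). The Cox4i1 isoform had nearly the same share in every class (2.02 to 2.31%). Of the members, 54.3% had a single isoform, against 31.9% of 13452 Ensembl genes.

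The tissue-type paralogues of complex IV gave the largest differences in level. Cox4i1 encodes the general form of subunit 4 and Cox4i2 the lung form, which is known from oxygen-sensing cells and pericytes. Cox4i2 was at 2734 CPM in Müller glia (interval 2693 to 2776), 212 in ganglion cells, 123 in amacrine cells, 90.23 in rods, 71.6 in bipolar cells and 39.8 in cones. The Müller glia column was 30.3 times the median of the others, ganglion cells were also called above and cones below. Cox4i1 was at 5223 CPM in amacrine cells, 4807 in ganglion cells, 4513 in bipolar cells and 3094 in cones, and was lowest in rods (2141) and Müller glia (2344). Cox4i2 was therefore 53.8% of the pair in Müller glia (53.3 to 54.4%) and 1.27 to 4.22% elsewhere. Per kilobase of transcript the 2 genes stood at 3776 and 3556 CPM per kb in Müller glia, a Cox4i2 share of 51.5%.

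Ndufa4 is a complex IV subunit despite its name, and its paralogue Ndufa4l2 is known as hypoxia-induced. Ndufa4l2 was at 240 CPM in Müller glia, 31.6 in bipolar cells, 11.2 in cones, 3.25 in amacrine cells and 2.34 in rods, with 0 counts in ganglion cells (up to 0.855 CPM). It made 9.60% of the pair in Müller glia and at most 0.451% elsewhere. Cox8b, a heart and muscle form, was at 108 CPM in Müller glia, 8.34 in bipolar cells and at most 2.27 in the other columns, with 0 counts in ganglion cells. Cox6b2, known as a testis form, was at 272 CPM in Müller glia, 197 in ganglion cells, 76.4 in amacrine cells and 26.4 in bipolar cells, against 15.0 in rods and 18.2 in cones. Its share of the pair with Cox6b1 was 14.5% in Müller glia and 6.76% in ganglion cells, against 0.861 to 2.48% elsewhere.

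The MG column that was high for these paralogues also held markers of other cell types. The 2 listed pericyte markers summed to 253 CPM there (Rgs5 164, Kcnj8 88.9) and to 0 to 11.9 CPM elsewhere. The 6 microglial markers summed to 1623 CPM (9.97 to 697 elsewhere), the 6 pigment epithelium markers to 8829 CPM (2.85 to 62.4 elsewhere) and the 4 Müller glia markers to 1848 CPM (8.26 to 83.8 elsewhere). The 4 red blood cell markers had the largest sum there, 12344 CPM (2.56 to 2783 elsewhere), most of it Hbb-bs (10259 CPM). The 4 listed astrocyte markers summed to 119 CPM (0 to 4.10 elsewhere), and Pecam1, the 1 listed endothelial marker, was at 7.66 CPM (0 to 0.483 elsewhere). The part of these cell types in the paralogue levels, and in the other levels of the MG column, was not tested.

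**Figure D4:**
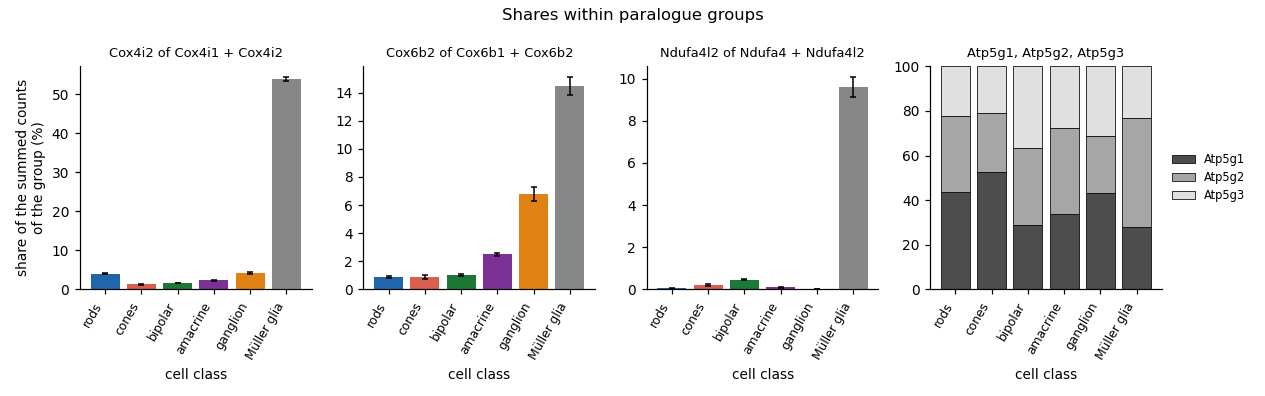
Share of Cox4i2, Cox6b2 and Ndufa4l2 in the summed counts of their pair (bars from 0, exact 95% intervals for counting error, a scale of its own in each panel), and the division of Atp5g counts among 3 genes. Müller glia have the highest share in each of the 3 pairs, with 53.8%, 14.5% and 9.60%, and cones have the highest Atp5g1 share (52.7%).

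Cox6a2, the heart and muscle form of subunit 6a, was at 60.7 CPM in amacrine cells (58.5 to 62.9), 8.26 in ganglion cells (29 counts), 0.652 in Müller glia, 0.631 in rods and 0.138 in bipolar cells, with 0 counts in cones (up to 0.411 CPM). Its general paralogue Cox6a1 was at 2389 CPM in amacrine and 2924 in ganglion cells, against 568 to 1312 elsewhere, so Cox6a2 remained 2.48% of the pair in amacrine cells. Cox7a1, a heart and muscle form, was at 51.9 CPM in ganglion cells and 28.5 in Müller glia, against 3.42 to 15.6 elsewhere, and made at most 1.36% of its group. Cox7b2 had 177 counts in all, 135 of them in amacrine cells, and made at most 0.142% of its pair. Cox8a, the member with the most counts (889483), was at 10959 CPM in cones, 8535 in bipolar cells, 6688 in amacrine cells, 5268 in ganglion cells, 3952 in Müller glia and 3543 in rods.

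The 3 Atp5g genes shared the c subunit differently. Atp5g1 made 52.7% of their counts in cones (52.2 to 53.1%), 43.8% in rods, 43.1% in ganglion cells, 33.7% in amacrine cells, 28.8% in bipolar cells and 28.1% in Müller glia. Atp5g2 led in Müller glia with 48.7%, and Atp5g3 led in bipolar cells with 36.6%. Coding sequences of paralogues were 62.9 to 78.7% identical over the aligned bases, with the highest value for Atp5g1 and Atp5g2.

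Of other mitochondrial genes, the tricarboxylic acid cycle list (16 of 17 genes tested) had 0 genes above (27.8% of all genes) and 7 below (22.3%) in amacrine cells. It had 2 above (19.9%) and 6 below (21.4%) in Müller glia, and 0 above (19.5%) and 5 below (26.8%) in ganglion cells. In bipolar cells it had 3 above (20.7%) and 1 below (12.9%), and in cones 3 above (14.7%) and 0 below (18.5%). In rods it had 1 above (27.5%) and 1 below (18.9%). Its median fold was 0.580 in amacrine cells, 0.572 in ganglion cells, 0.603 in Müller glia, 1.43 in rods, 1.41 in cones and 1.54 in bipolar cells. In the same order of classes, the medians of the 81 subunits were 1.11, 1.09, 0.717, 0.811, 1.06 and 1.23, and those of all genes 1.13, 0.541, 0.834, 1.27, 0.896 and 1.16. Among 39 assembly factors, 8 were below in Müller glia, a share close to the 21.4% of all genes, and 0 were above (19.9% of all genes). In each other class 1 to 5 were above (14.7 to 27.8% of all genes) and 1 to 5 below (12.9 to 26.8%). Of 30 carriers, channels and import genes, 0 were above (19.9% of all genes) and 4 below (21.4%) in Müller glia, and 5 were above (19.5%) and 5 below (26.8%) in ganglion cells. In amacrine cells 3 were above (27.8%) and 5 below (22.3%), and in rods 3 were above (27.5%) and 4 below (18.9%). In bipolar cells 2 were above (20.7%) and 0 below (12.9%), and in cones 2 were above (14.7%) and 1 below (18.5%). Each of these counts is, as a share of the list, under the share of all genes. Of 11 regulators of mitochondrial biogenesis, 6 were above (27.5% of all genes) and 0 below (18.9%) in rods (median fold 2.29). The 6 included Nrf1 (30.7 CPM, against 0 to 10.1 elsewhere) and Gabpb1 (22.9 CPM). The others were at low levels in rods: Ppargc1b (7.58 CPM), Yy1 (4.13), Esrrb (3.81) and Polrmt (3.17). In ganglion cells 0 were above (19.5%) and 5 below (26.8%), with a median fold of 0.194. Of these 5, Ppargc1b, Nrf1 and Esrrg had 0 counts there. Gabpa was at 0.570 CPM, under the limit of 3 counts (0.855 CPM), and Tfam at 9.97 CPM. In Müller glia 1 was above (19.9%) and 4 below (21.4%). Of 10 other respiratory chain genes, 0 to 2 were above (14.7 to 27.8% of all genes) and 0 to 2 below (12.9 to 26.8%) in each class. Atpif1, the inhibitor of ATP synthase, was called above in amacrine cells (3277 CPM) and ganglion cells (4813) and below in rods (627) and Müller glia (856). Idh3a, a subunit of isocitrate dehydrogenase, was called above in cones (336 CPM) and bipolar cells (176), and below in amacrine cells (71.1) and Müller glia (54.6).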

How the data were processed

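Single-cell cDNA of 4 retinal libraries was made with 10x Genomics chemistry and sequenced on a nanopore instrument, per the labels' protocols. The authors deposited whole-number counts per isoform and cell class, and transcript models with their coordinates. The build mm10 comes from the submitters' processing notes. The deposited models name FLAIR as their source, per the file contents. The aligner, its settings, strand handling, collapse of reads to molecules, cell typing and doublet treatment are not given in the sources used here, so several counts can come from 1 molecule. The 6 columns name no library, and 0 columns were left unused. The models cover only isoforms with a rod count, so structures of the others were not described.

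Gene symbols came from the gene identifier at the end of each isoform name. Counts were summed per gene and scaled to 1000000 per column. In the 2-fold rule, values below 3 counts were set to a limit of 3 counts. This was done in the denominator for folds above and in the class itself for folds below. Intervals are exact Poisson (CPM) or Clopper-Pearson (shares) at 95%. Models were compared with GENCODE M21 by their introns, and sequences came from M21 transcripts and RefSeq promoters. Near-identical copies were sought among M21 transcripts with BLAST 2.17.0 (at least 95% identity over 80% of the member's longest coding sequence). The fold and switch rules were tested on simulated data. Alternatives were scaling by the trimmed mean of M-values or the median of ratios (computed over genes from their formulas), other count minimums, folds and differences, annotated isoforms only, equal depth, and values per kilobase. All tables were made with numpy 2.4.6, pandas 2.3.3 and scipy 1.17.1. No p-value was computed.

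Genes were named by a rule: all paralogue members, per class up to 3 members with the largest fold above and 3 below, the 5 largest and 5 smallest highest-to-lowest ratios, switched members, the 5 members with the most isoforms, and the leading unannotated isoforms. Some genes whose minor isoforms are described were chosen outside this rule, after their values were seen. Members and lists were chosen with earlier results of these data known. The values of 1 member are not reported here.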

Additional observations from a re-analysis of the deposited data

How the results depend on the processing

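No paired analysis was possible because cell classes, not libraries or replicates, form the columns. The ratio of the highest to the lowest class in the summed level, 1.69, was 1.78 with the trimmed mean of M-values, 1.65 with the median of ratios (cones over rods), 1.68 with annotated isoforms, 1.78 without the 20 genes of highest level and 1.69 at equal depth. The 19 members above in any class became 11 at a fold of 3 and 46 at 1.5, and the 29 below became 14 and 61. Under the other settings the counts ran from 16 to 21 and from 25 to 31. The trimmed mean kept 17 of the 19 and all 29. The number of members whose leading isoform changed between classes by 50 percentage points was 1 of 36 (10.2% of all genes), became 2 at 25 points, with Atp5g1, and was 1 under the other 5 settings. The unannotated share of 1.73% was 24.3% with each isoform counted once and 0% as the median over members. Per kilobase, Cox4i2 in Müller glia was 51.5%, Cox6a2 in amacrine cells 2.74%, Cox7a1 in Müller glia 1.88%, Cox8b there 3.50%, Ndufa4l2 there 5.14% and Atp5g1 in cones 58.1%. With annotated isoforms only, Cox7b2 was at 0%. Low counts limit Cox7b2 (177 counts), Atp5d (807) and the ganglion cell values of Ndufs1 (29) and Ndufs7 (16).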
